A study of Mus musculus with 6 samples.

Results

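The 10 genes described here are Hif1a, which encodes the oxygen-regulated subunit of the hypoxia-inducible factor HIF, and 9 genes that HIF is known to induce: Vegfa, Car9, Slc16a3, Slc2a1, Bnip3, P4ha1, Pdk1, Egln1 and Egln3. They were chosen by gene symbol from the 39179 genes of the authors' deposited table, and all 10 were found, tested by the authors and listed at 1 FPKM or more in both groups. Expression was measured by RNA sequencing in cells of B16F10.9, a mouse melanoma line (strain C57BL/6) that makes melanin, in 3 libraries of cells given recombinant mouse IFN-gamma for 24 h at a labelled 50 µg/ml and 3 libraries of cells with no agent. The unit of that dose is doubtful, as cultures are commonly dosed with this cytokine in ng/ml. The labels name no hypoxic group and give no oxygen level for the cultures. Levels are FPKM, sequenced fragments per unit of transcript length and of library size. Each group has 1 FPKM value per gene, made by the authors from its 3 libraries, so levels carry neither SD nor n, depth per library is unknown, and which levels differ beyond their spread is judged only through the authors' test. Genes are said to rise or fall where the authors' deposited table gives a q-value below 0.05. The labels state triplicate seeding and no more, so the spread behind those q-values may be technical.

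In oxygenated cells the prolyl hydroxylases of the Egln genes modify the HIF alpha subunit, the von Hippel-Lindau protein recognises it and it is degraded. When oxygen is short, the subunit persists, pairs with ARNT and binds DNA at a short core motif near genes for glucose uptake, lactate export, blood vessel growth and mitochondrial removal. This control acts mostly on the protein, which RNA levels do not show. In melanoma the pathway is known for angiogenesis and for the glycolytic metabolism of tumour cells.

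The labelled cell type and treatment were checked first. The 7 melanocyte markers were all at 78.7 FPKM or more in both groups, with Mitf the lowest (105 FPKM with IFN-gamma, 78.7 FPKM untreated) and Tyrp1 among the highest (4045 FPKM with IFN-gamma, 2337 FPKM untreated). Of 19 markers of fibroblasts, leukocytes, endothelium and keratinocytes, the summed FPKM per list was 1.46, 4.17, 0.151 and 0.0052 with IFN-gamma, against 0.44, 3.69, 0.169 and 0.018 in untreated cells. Of the 2 tested leukocyte markers, Cd68, a lysosomal protein gene, rose to 2.85 FPKM with IFN-gamma against 1.92 FPKM untreated (q = 0.0199 in the authors' deposited table) and made most of that sum, and Lyz2 was not called (1.30 FPKM with IFN-gamma, 1.65 FPKM untreated). The defining leukocyte gene Ptprc was not tested and was listed at 0.00849 FPKM with IFN-gamma and 0.0954 FPKM untreated, and Cd3e at 0 with IFN-gamma and 0.00754 FPKM untreated. Of the 3 tested fibroblast markers, Lum rose to 1.29 FPKM with IFN-gamma against 0.0664 FPKM untreated, making most of the fibroblast sum of treated cells, Pdgfra fell to 0.0175 FPKM with IFN-gamma against 0.149 FPKM untreated, and Col1a1 was not called (0.135 FPKM with IFN-gamma, 0.197 FPKM untreated). The part of such cells in the results below was not tested. Irf1, a direct target of IFN-gamma signalling, stood at 482 FPKM with IFN-gamma and 10.2 FPKM untreated.

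The promoters of 5 of the genes are printed because they include the 3 largest falls, the most abundant target in untreated cells and the single rise. Each run is the 250 bases before the RefSeq start site (GRCm38.p6), read 5′ to 3′ on the gene's strand. Capitals mark ACGTG or GCGTG, the core bound by HIF, on either strand.
Vegfa (chr17:46032378-46032627, minus strand): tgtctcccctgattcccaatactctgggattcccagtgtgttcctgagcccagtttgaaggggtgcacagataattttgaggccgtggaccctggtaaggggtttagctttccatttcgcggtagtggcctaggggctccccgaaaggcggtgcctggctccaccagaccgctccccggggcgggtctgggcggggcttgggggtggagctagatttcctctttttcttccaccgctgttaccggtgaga
Car9 (chr4:43506776-43507025, plus strand): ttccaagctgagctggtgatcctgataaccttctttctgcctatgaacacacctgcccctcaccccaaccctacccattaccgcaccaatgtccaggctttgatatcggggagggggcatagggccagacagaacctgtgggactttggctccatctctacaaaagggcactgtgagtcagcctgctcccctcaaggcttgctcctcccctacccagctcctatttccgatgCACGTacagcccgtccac
Slc16a3 (chr11:120948817-120949066, plus strand): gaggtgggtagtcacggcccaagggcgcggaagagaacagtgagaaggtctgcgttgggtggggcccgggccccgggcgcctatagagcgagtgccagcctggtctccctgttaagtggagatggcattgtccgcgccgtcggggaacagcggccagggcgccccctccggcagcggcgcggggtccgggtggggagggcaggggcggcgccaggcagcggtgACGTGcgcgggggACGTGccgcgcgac
Bnip3 (chr7:138909507-138909756, minus strand): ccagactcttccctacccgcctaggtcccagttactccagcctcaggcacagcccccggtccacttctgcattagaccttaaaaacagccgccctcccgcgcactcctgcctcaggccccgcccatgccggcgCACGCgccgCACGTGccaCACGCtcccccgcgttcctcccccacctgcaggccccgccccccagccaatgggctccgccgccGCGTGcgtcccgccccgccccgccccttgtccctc
P4ha1 (chr10:59323046-59323295, plus strand): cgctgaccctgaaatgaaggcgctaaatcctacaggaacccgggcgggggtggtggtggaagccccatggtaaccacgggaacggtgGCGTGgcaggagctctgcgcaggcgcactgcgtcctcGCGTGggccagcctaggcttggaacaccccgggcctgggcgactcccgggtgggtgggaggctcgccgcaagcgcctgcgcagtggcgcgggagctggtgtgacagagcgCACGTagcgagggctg
The search covered 250 bases before to 50 bases after each start site. At least 1 such core was found for 10 of the 10 genes and in 10 of their 12 windows, while 43.8% of 32851 windows of the same size in the reference held one. Slc16a3 held 2 copies of ACGTG on its own strand, 27 and 14 bases before the start. Bnip3 held 5 cores, of which 2 are the strands of 1 palindrome, CACGTG, a sequence also read by other factors and found in 7.15% of windows. P4ha1, the gene that rose, held 3 cores, 1 of them ACGTG on the opposite strand. The window of Vegfa printed above held none. The window of its second RefSeq start, which lies inside the gene (46025114 to 46025413), held 1 of each core. Vegfa is thus counted among the 10 through that window only. The reference share is per window, and Vegfa and Pdk1 had 2 windows each. The STAT motif TTCNNNGAA, searched on both strands and present in 8.3% of all windows, was found in none of the 12. Core matches were thus present beside genes that fell, the gene that rose and the genes without a call, and a match is a description of letters only.

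Across the 10 genes, 7 fell, 1 rose and 2 were not called after IFN-gamma. The falls were those of Vegfa, Car9, Slc16a3, Slc2a1, Bnip3, Pdk1 and Egln1, the rise was that of P4ha1, and Hif1a and Egln3 were not called. Of all 17021 tested genes 20.9% fell and 23.4% rose, 44.4% together, and among the 12800 with at least 1 FPKM in the higher group 25.3% fell and 27.9% rose. The genes were named with earlier results of these data known, so their count is a description and no test of it is given. Falls of at least 2-fold numbered 5 of 10, against 8.88% of all tested genes, and rises of that size 1 of 10, against 9.69%. The median log2 ratio of IFN-gamma-treated over untreated cells was -1.15 for the 10 genes, against 0.04 for all tested genes. The 8 called genes share a q-value of 0.000187 in the authors' deposited table, the smallest it holds. That value is shared by 4545 of the 17021 tested genes, so the calls cannot be ranked by q. In RNA of a whole culture, fewer cells expressing a gene and less RNA per cell cannot be told apart.

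**Figure D1:**
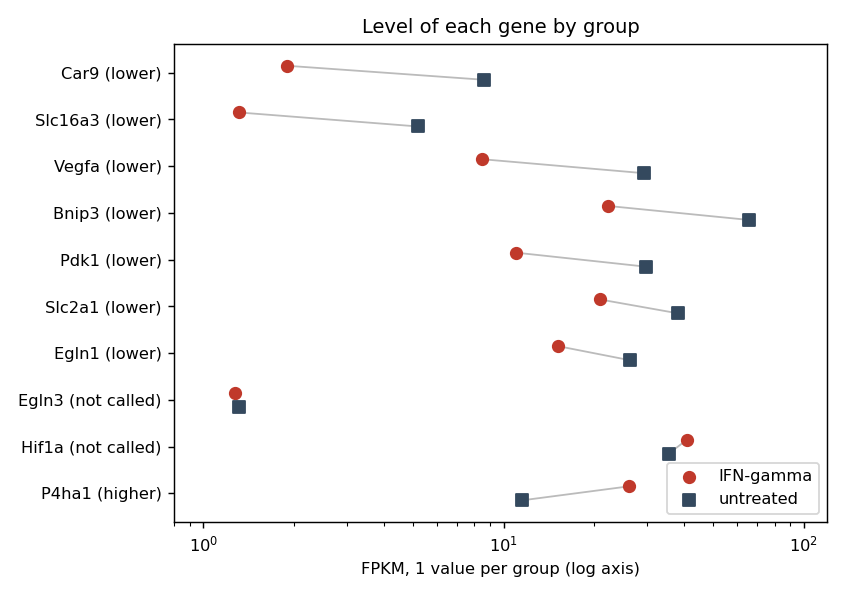
FPKM of each of the 10 genes on a log axis, with the IFN-gamma value as a circle above the untreated value as a square and the call in brackets. The circle lies left of the square for the 7 genes that fell, from Car9 (1.89 FPKM with IFN-gamma, 8.58 FPKM untreated) to Egln1 (15.2 FPKM with IFN-gamma, 26.3 FPKM untreated), and right of it for P4ha1 (26.1 FPKM with IFN-gamma, 11.5 FPKM untreated).

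**Figure D2:**
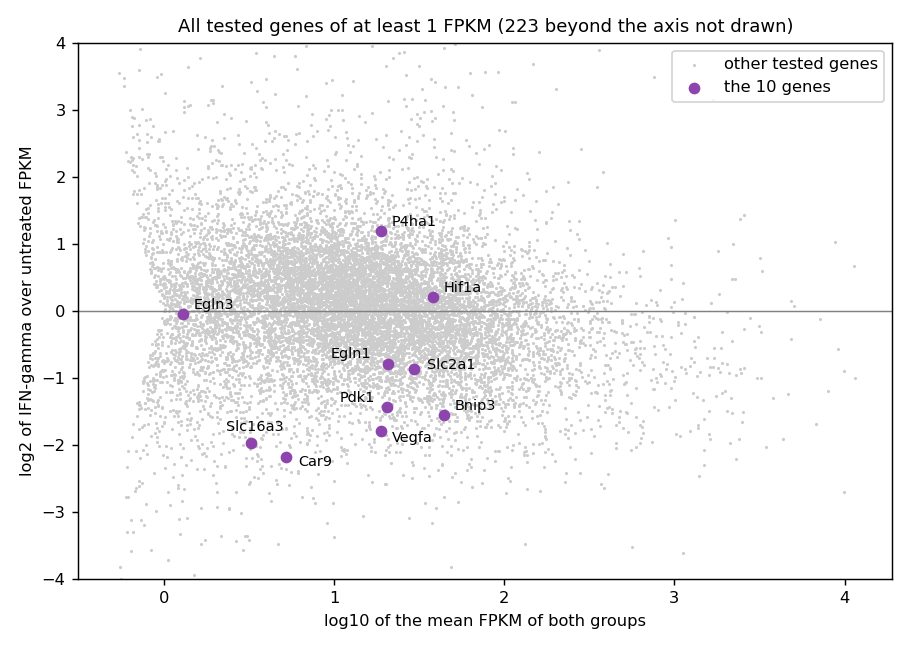
Log2 ratio of IFN-gamma over untreated FPKM against the log10 mean FPKM of both groups for 12417 tested genes above 0 in both groups and at 1 FPKM or more in the higher, of which 223 beyond the vertical axis are not drawn. The 10 genes are in purple, with 1.44% of genes below Car9, 2.95% below Vegfa and 90.3% below P4ha1.

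Ratios in these data follow transcript length, which touches every value given here. Among tested genes with at least 1 FPKM, the median log2 ratio was -0.43 in the fifth with the shortest transcripts (up to 1457 nt) and 0.50 in the fifth with the longest (from 4886 nt). The longest transcripts of the 10 genes run from 1756 nt (Bnip3) to 5185 nt (Pdk1). When the running median over genes of like length was taken out, the 7 falls had log2 ratios between -2.18 (Slc16a3) and -0.87 (Egln1) and P4ha1 had 1.03. The fall of Pdk1 went to -1.77, the value of Vegfa to -1.89 and that of Bnip3 to -1.31. The cause of the length trend was not tested.

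**Figure D3:**
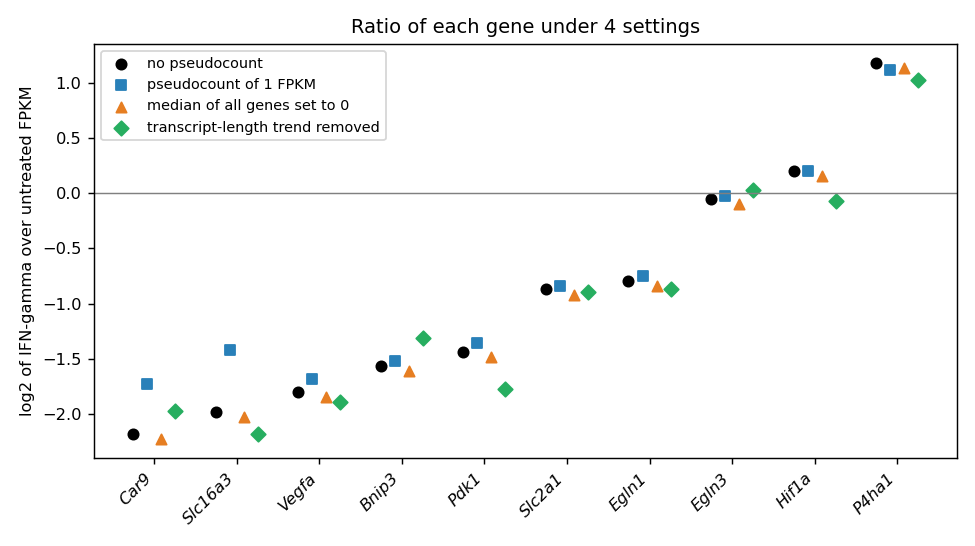
Log2 ratio of IFN-gamma over untreated FPKM for each of the 10 genes under 4 settings, marked by shape. The 7 genes that fell lie below 0 and P4ha1 above 0 under each of the 4, and Hif1a and Egln3 lie on either side of 0 depending on the setting.

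Vegfa encodes the secreted growth factor that drives the sprouting of blood vessels. It fell to 8.47 FPKM in IFN-gamma-treated cells, against 29.4 FPKM in untreated cells, a log2 ratio of -1.80 or a 3.48-fold lower level. The test score in the authors' deposited table was -5.20, and 2.95% of the 12417 tested genes with a ratio and at least 1 FPKM had a lower ratio. Vegfa lies on chromosome 17 (46016993 to 46032369, minus strand, GRCm38). The ligand genes Vegfb and Vegfc had no call. Vegfb was at 44.2 FPKM with IFN-gamma and 47.7 FPKM untreated (q = 0.511 in the authors' deposited table), and Vegfc, a lymphatic growth factor, at 6.93 FPKM with IFN-gamma and 6.24 FPKM untreated (q = 0.369 in the authors' deposited table). Vegfa made up 14.2% of the summed FPKM of the 5 VEGF ligand genes with IFN-gamma and 35.1% untreated, a share computed after the values were seen.

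Among receptors for these ligands, the vascular receptors Kdr and Flt1 were below 0.03 FPKM in both groups and were not tested. The lymphatic receptor gene Flt4 rose to 1.44 FPKM with IFN-gamma, against 0.392 FPKM untreated. The co-receptor genes Nrp1 and Nrp2 rose as well, Nrp1 to 13.97 FPKM with IFN-gamma against 6.22 FPKM untreated and Nrp2 to 41.6 FPKM with IFN-gamma against 24.8 FPKM untreated. With the length trend taken out, the log2 ratio of Nrp2 was 0.25 in place of 0.74. By the same step Nrp1 had 1.09 in place of 1.17 and Flt4 1.37 in place of 1.88. Of the 7 tested genes of the VEGF list other than Vegfa, 3 rose and 1 fell, beside 23.4% rising and 20.9% falling among all tested genes, and their median log2 ratio was 0.15. That fall, picked with its values in view, belonged to the placental growth factor gene Pgf, at 0.0425 FPKM with IFN-gamma and 0.430 FPKM untreated (q = 0.0149 in the authors' deposited table). Of the 4 tested genes among the other secreted targets none was called, and 5 more, including those for erythropoietin and endothelin, were not tested and stood below 0.1 FPKM.

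The genes for acid and lactate handling showed the 2 lowest ratios of the 10. Car9 encodes a membrane carbonic anhydrase with its active site outside the cell, and lies on chromosome 4 (43506966 to 43513729, plus strand). It fell to 1.89 FPKM with IFN-gamma, against 8.58 FPKM untreated, a log2 ratio of -2.18 (4.53-fold lower). Of the tested genes with at least 1 FPKM, 1.44% had a lower ratio. Slc16a3 encodes MCT4, which exports lactate, and lies on chromosome 11 (120948480 to 120960868, plus strand). It fell to 1.32 FPKM with IFN-gamma, against 5.19 FPKM untreated, a log2 ratio of -1.98. Both levels with IFN-gamma are close to 1 FPKM, and with a pseudocount of 1 FPKM the ratios were -1.73 for Car9 and -1.42 for Slc16a3.

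Slc2a1, the gene for the glucose transporter GLUT1, fell by less than 2-fold. It stood at 20.9 FPKM with IFN-gamma and 38.3 FPKM untreated, a log2 ratio of -0.87. It lies on chromosome 4 (119108711 to 119137983, plus strand). The relatives of both transporter genes were without a call. Slc16a1, a widely expressed lactate transporter gene, was at 26.4 FPKM with IFN-gamma and 31.7 FPKM untreated (q = 0.0699 in the authors' deposited table). Slc2a3, another glucose transporter gene, was at 10.9 FPKM with IFN-gamma and 10.7 FPKM untreated (q = 0.937 in the authors' deposited table). Slc16a3 made up 4.75% of the summed FPKM of the 2 lactate transporter genes with IFN-gamma and 14.1% untreated. Car12, another extracellular carbonic anhydrase gene, was below 0.03 FPKM in both groups and was not tested.

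Bnip3 and Pdk1, the mitochondrial targets among the 10, fell as well. Bnip3 encodes a receptor of the outer mitochondrial membrane that marks mitochondria for removal by autophagy, and lies on chromosome 7 (138890836 to 138909519, minus strand). It fell to 22.3 FPKM with IFN-gamma, against 65.8 FPKM in untreated cells, where it was the most abundant of the 10 genes, a log2 ratio of -1.56. Its score of -7.05 in the authors' deposited table was the largest in size among the 10. Parts of its transcript match 6 other annotated genes at 90% identity or more over at least 200 bases. The table holds 2 of these, at 0 or below 0.03 FPKM with and without IFN-gamma. The others have no listed value, so a part of the fragments may have been divided among copies. Its relative Bnip3l, also a mitophagy receptor gene, was at 49.8 FPKM with IFN-gamma and 70.7 FPKM untreated, without a call (q = 0.116 in the authors' deposited table).

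Pdk1 encodes a kinase that switches off pyruvate dehydrogenase and so keeps pyruvate from being turned into acetyl-CoA in the mitochondrion. It fell to 11.01 FPKM with IFN-gamma, against 29.8 FPKM untreated, a log2 ratio of -1.44, and lies on chromosome 2 (71873224 to 71903858, plus strand). The isoenzyme genes Pdk2 and Pdk3 rose. Pdk3 stood at 85.4 FPKM with IFN-gamma, against 31.2 FPKM untreated (log2 ratio 1.45), and Pdk2 at 1.64 FPKM with IFN-gamma against 0.781 FPKM untreated. Pdk4 was below 0.03 FPKM in both groups. The summed FPKM of the 4 kinase genes was 98.1 with IFN-gamma and 61.9 untreated, and Pdk1 made up 11.2% of it with IFN-gamma and 48.2% untreated.

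**Figure D4:**
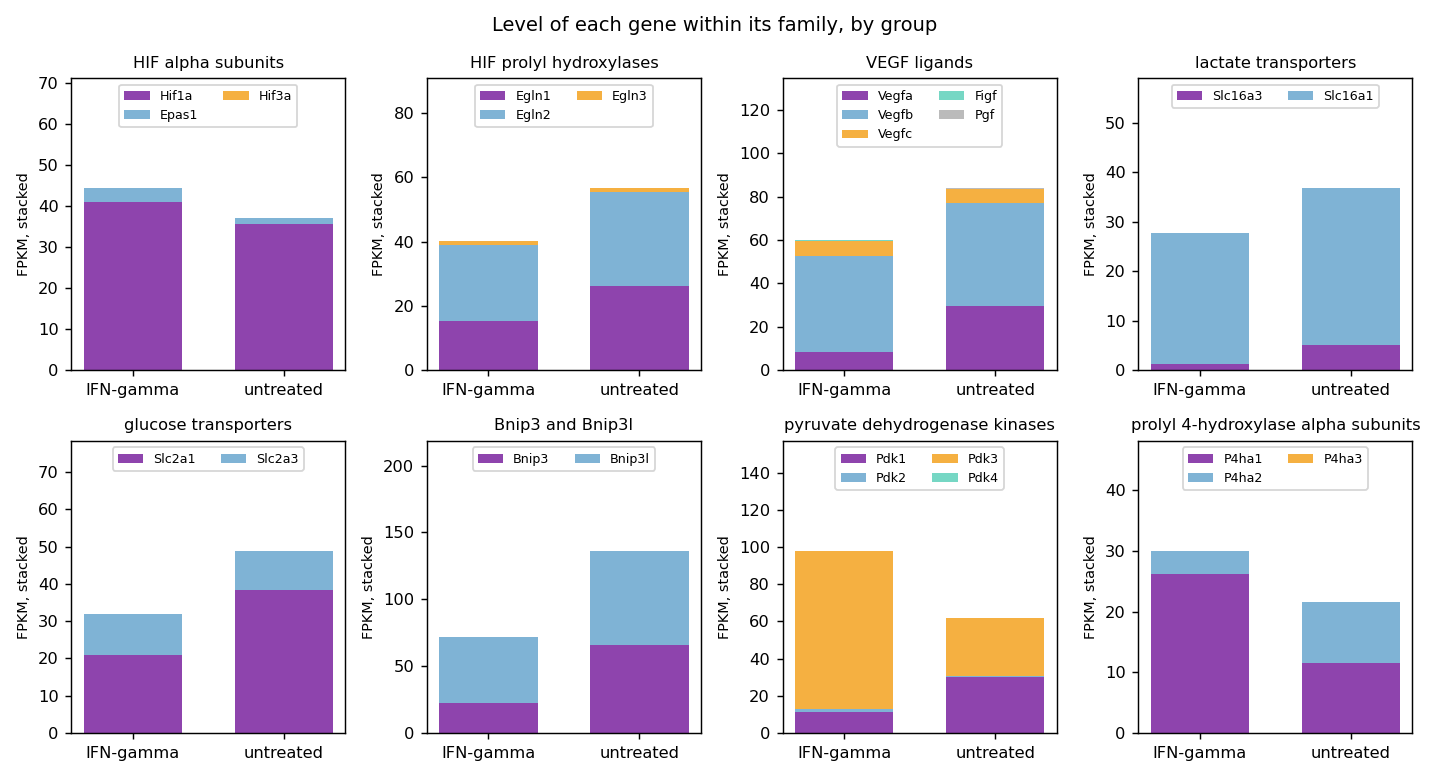
Stacked FPKM of the families of the 10 genes other than Car9, with the IFN-gamma bar left of the untreated bar, each axis starting at 0. The kinase panel shows Pdk1 at 11.01 FPKM and Pdk3 at 85.4 FPKM with IFN-gamma, against 29.8 and 31.2 FPKM untreated, and the P4ha panel shows P4ha1 at 26.1 FPKM with IFN-gamma and 11.5 FPKM untreated.

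Of the 11 tested genes of the mitophagy and mitochondrial list other than Bnip3 and Pdk1, 2 rose, 4 fell and 5 were not called. The shares among all tested genes were 23.4% rising and 20.9% falling. The median log2 ratio of the 11 was -0.27, against 0.04 for all tested genes. Fam162a, a hypoxia-induced mitochondrial protein gene, fell to 83.1 FPKM with IFN-gamma against 243.7 FPKM untreated (log2 ratio -1.55), and Higd1a, a respiratory chain assembly factor gene, to 23.3 FPKM with IFN-gamma against 56.8 FPKM untreated (log2 ratio -1.28). Hilpda, a regulator of lipid droplets, at 15.9 FPKM with IFN-gamma and 26.3 FPKM untreated, and Pdp1, a phosphatase that opposes the Pdk enzymes, at 2.41 FPKM with IFN-gamma and 3.14 FPKM untreated, were the other falls, picked with their values in view. With the length trend taken out, the log2 ratio of Hilpda was -0.21 in place of -0.72 and that of Fam162a was -1.05. Higd1a then had -1.14, and Pdp1 had -0.54 in place of -0.38. The 2 rises were those of Pdk2 and Pdk3, with 1.19 and 1.66 after that step.

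P4ha1 encodes a catalytic subunit of the prolyl hydroxylase that stabilises collagen, and was the single gene of the 10 to rise. It stood at 26.1 FPKM with IFN-gamma and 11.5 FPKM untreated, a log2 ratio of 1.18 (2.27-fold), with a score of 5.38 in the authors' deposited table. It lies on chromosome 10 (59323296 to 59373304, plus strand). P4ha2, the alternative catalytic subunit and also a known HIF target, fell to 3.91 FPKM with IFN-gamma against 10.1 FPKM untreated (log2 ratio -1.37). P4ha1 made up 86.96% of the summed FPKM of the 3 alpha subunit genes with IFN-gamma and 53.2% untreated, P4ha3 being near 0 in both. Whether the ratios of P4ha1 and P4ha2, or of Pdk1 and Pdk3, differ beyond the spread between libraries was not tested, since no value per library was used.

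Other collagen-modifying genes also went both ways. The lysyl hydroxylase genes Plod3 and Plod2 had opposite calls, Plod3 rising to 147 FPKM with IFN-gamma against 32.8 FPKM untreated (log2 ratio 2.16) and Plod2 falling to 8.82 FPKM with IFN-gamma against 24.4 FPKM untreated (log2 ratio -1.47). Plod3 shares its locus with 2 other genes, and their part in its level was not tested. Of the 5 tested genes of this list other than P4ha1, 1 rose, 2 fell and 2 were not called, with 23.4% of all tested genes rising and 20.9% falling. The lysyl oxidase genes Lox and Loxl2 were below 0.02 FPKM in both groups and were not tested.

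Hif1a itself was not called, at 40.9 FPKM with IFN-gamma and 35.5 FPKM untreated, a log2 ratio of 0.20 (q = 0.190 in the authors' deposited table). It lies on chromosome 12 (73901375 to 73947530, plus strand) and was the most abundant of the 10 genes in treated cells. With the length trend taken out its ratio was -0.07, so its direction depends on that step. Epas1, which encodes the other main alpha subunit, rose to 3.45 FPKM with IFN-gamma against 1.53 FPKM untreated (log2 ratio 1.17), and Hif1a made up 92.1% of the summed alpha subunit FPKM with IFN-gamma and 95.9% untreated. Hif3a was listed at 0.0503 FPKM with IFN-gamma and at 0 untreated and was not tested.

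Of the oxygen sensors of the Egln family, Egln1 and Egln2 fell and Egln3 had no call. Egln1 encodes PHD2, the main HIF prolyl hydroxylase, and is itself a HIF target. It fell to 15.2 FPKM with IFN-gamma, against 26.3 FPKM untreated, a log2 ratio of -0.79, the smallest of the 7 falls. It lies on chromosome 8 (124908587 to 124949324, minus strand). Egln3 encodes PHD3 and was not called, at 1.27 FPKM with IFN-gamma and 1.32 FPKM untreated (q = 0.819 in the authors' deposited table). It lies on chromosome 12 (54178981 to 54203860, minus strand). Egln2 fell to 23.8 FPKM with IFN-gamma against 29.1 FPKM untreated, with q = 0.0465 in the authors' deposited table and a ratio of -0.07 once the length trend was taken out. The summed FPKM of the 3 hydroxylase genes was 40.2 with IFN-gamma and 56.7 untreated.

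Of the 12 tested genes of the HIF and oxygen-sensing list other than members, 6 rose, 5 fell and 1 was not called, against shares of 23.4% rising and 20.9% falling among all tested genes. Before the length trend was taken out, the largest rises were in the histone acetyltransferase genes Ep300 and Crebbp, which encode coactivators of HIF, and in Epas1 and Cul2, a scaffold of the von Hippel-Lindau ubiquitin ligase. Ep300 rose to 9.98 FPKM with IFN-gamma against 4.13 FPKM untreated, Crebbp to 3.29 FPKM with IFN-gamma against 1.42 FPKM untreated, and Cul2 to 58.0 FPKM with IFN-gamma against 31.0 FPKM untreated. With the length trend taken out that order turned. The log2 ratios were 0.61 in place of 1.27 for Ep300 and 0.54 in place of 1.22 for Crebbp. Crebbp then had the smallest ratio of the 6, followed by Arnt (0.60) and Ep300. Cited2 (0.88), Cul2 (0.85) and Epas1 (0.77) had the largest. The other rises, picked with their values in view, were in Arnt, the partner of the alpha subunits (25.7 FPKM with IFN-gamma, 14.7 FPKM untreated), and Cited2, a competitor of HIF for its coactivators (61.0 FPKM with IFN-gamma, 36.9 FPKM untreated). The remaining falls, picked in the same way, were in the ubiquitin ligase that recognises HIF. Vhl stood at 19.3 FPKM with IFN-gamma and 24.8 FPKM untreated, and Tceb1, an elongin gene, at 83.1 FPKM with IFN-gamma and 153 FPKM untreated. Tceb2, another elongin gene, stood at 428 FPKM with IFN-gamma and 605 FPKM untreated, and Rbx1 at 68.6 FPKM with IFN-gamma and 85.2 FPKM untreated. Tceb2 had a log2 ratio of 0.03 once the length trend was taken out, against -0.50 before. By the same step Rbx1 had -0.07 against -0.31 and Tceb1 -0.37 against -0.88. Vhl changed little, at -0.35 against -0.36.

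Further hypoxia-inducible genes did not move as one group. Of 20 tested genes 7 rose, 4 fell and 9 were not called, beside 23.4% rising and 20.9% falling among all tested genes, and their median log2 ratio was 0.12, or -0.04 with the length trend taken out. Ddit4, an inhibitor of mTOR signalling, fell to 15.1 FPKM with IFN-gamma against 35.04 FPKM untreated (log2 ratio -1.22). Kdm3a, a histone demethylase gene, rose to 32.96 FPKM with IFN-gamma against 18.7 FPKM untreated. The transcription factor genes Bhlhe41 and Rora rose too, Bhlhe41 to 102 FPKM with IFN-gamma against 61.6 FPKM untreated and Rora to 3.11 FPKM with IFN-gamma against 1.88 FPKM untreated. With the length trend taken out, the log2 ratio of Rora was 0.05 in place of 0.72 and that of Bhlhe41 was 0.26 in place of 0.73. By the same step Kdm3a had 0.54 in place of 0.81 and Ddit4 -0.98 in place of -1.22. Of the 16 glycolysis enzyme genes, many of which HIF also induces, 3 rose and 7 fell. Among all tested genes 23.4% rose and 20.9% fell. The median log2 ratio of the 16 was -0.35, or -0.21 with the length trend taken out. Ldha, which makes lactate, fell to 462 FPKM with IFN-gamma against 1689 FPKM untreated, and Hk2, the hexokinase that HIF induces, rose to 33.1 FPKM with IFN-gamma against 11.3 FPKM untreated.

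**Figure D5:**
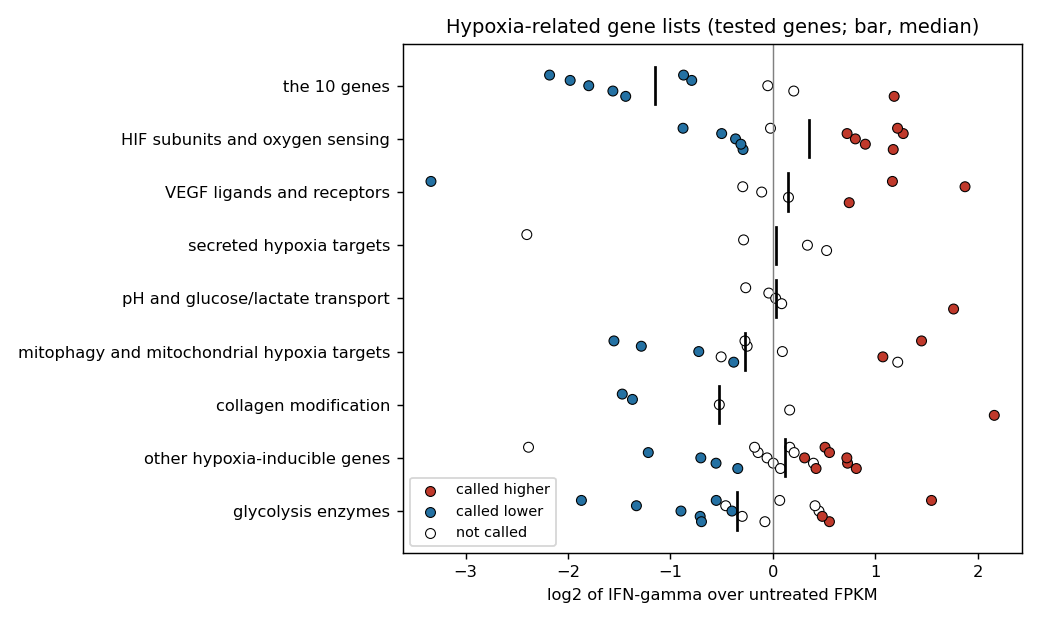
Log2 ratio of IFN-gamma over untreated FPKM for each tested gene, one line per list without the 10 genes, which are on the top line; colours give the call and bars the median. The bar of the 10 genes lies at -1.15 and those of the other lists between -0.52 (collagen modification) and 0.35 (HIF subunits and oxygen sensing).

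Some loci hold other genes. The kit keeps no strand information, and reads from antisense partners cannot be told apart from those of the gene. The antisense gene Gm12454 at Car9 was listed at 0.424 FPKM with IFN-gamma and 0.670 FPKM untreated, and Gm12868 at Slc2a1 at 3.34 FPKM with IFN-gamma and 5.31 FPKM untreated. Gm15283, a processed transcript at the Hif1a locus, was listed at 3.35 FPKM with IFN-gamma and 2.61 FPKM untreated. None of these 3 was called. At Slc2a1, the antisense gene Gm12867 (0.0400 FPKM with IFN-gamma, 0.118 FPKM untreated) and the miRNA gene Mir1957 (listed at 0 in both groups) were not tested. The other 7 genes share their locus with no gene of the table.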

How the data were processed

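RNA of B16F10.9 cells was sequenced as 6 libraries and the kit was Illumina's TruSeq RNA V2, per the labels' protocols. The submitters' processing notes name TopHat2 2.0.11, Cufflinks 2.2.1, Cuffdiff and the GRCm38 build. For their parameters and annotation release: not given in the sources used here.

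FPKM values were deposited by the authors, 1 per group and gene, per the file headers. The same deposited table holds the authors' score, p-value and q-value of each test. A title line speaks of infected against uninfected samples, while the sample cells name B16 and IFN, which were followed. The q-values equal a Benjamini-Hochberg adjustment over the 17021 tested genes within 5.3e-07. The log2 ratio of IFN-gamma over untreated FPKM was computed here without a pseudocount. As no value per library was used, the planned model fits were replaced by the branch set for tables of group values, and no error per gene could be computed.

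Transcript length was that of the longest listed transcript in GENCODE M21 (GRCm38), found for 99.5% of the 12417 genes used. Its trend was a running median over 501 genes, tested on simulated data. Gene positions are those of GENCODE M21, and promoters those of RefSeq (GRCm38.p6). Copies were sought with blastn 2.17.0. Python 3.11.15, pandas 2.3.3, numpy 2.4.6 and matplotlib 3.10.9 were used.

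The members, lists and naming rule were chosen with earlier results of these data known. Beside the 10 members and their paralogs, up to 4 called genes per list with the largest ratio that reached 1 FPKM in a group were named, and up to 2 for glycolysis. A gene of the transport list is not reported here.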

Additional observations from a re-analysis of the deposited data

How the results depend on the processing

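No value per library was used, so leaving out replicates and changing a filter on library values were not run. No paired analysis was possible because the table holds 1 value per group. The 7 falls and 1 rise were also called at q under 0.01. They were called too with q recomputed over genes of at least 1 FPKM, and with the p-values adjusted again. Of the 17021 tested genes, 4545 held the smallest q-value and so met the 0.01 cutoff too. The full share at that cutoff was not computed. Requiring 2-fold left 5 falls and 1 rise of the 10 genes. The median log2 ratio of the 10 genes lay between -1.20 (median of all genes set to 0) and -1.10 (pseudocount of 1, or length trend removed). Each of the 8 called ratios kept its sign under the 2 pseudocounts, 2 scalings and the length step, and moved by less than 1.5-fold. Setting the median of all genes to 0 shifted ratios by 0.05. Counts in the wider lists, without the 10 genes, moved more. With a 2-fold minimum the HIF and oxygen-sensing list had 3 rises and 0 falls in place of 6 and 5, and the mitochondrial list 2 falls in place of 4. The other hypoxia-inducible genes then had 0 rises and 1 fall in place of 7 and 4, and glycolysis 1 rise and 2 falls in place of 3 and 7. By the same 2-fold rule 9.69% of all tested genes rose and 8.88% fell. At q under 0.01 the falls were 3 in the HIF list, 0 in the VEGF list in place of 1, and 2 among the other hypoxia-inducible genes. These counts fell because fewer genes met the stricter rule. The depth of the libraries is unknown, and levels near 1 FPKM, as for Egln3, Slc16a3 and Car9, are the least certain.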

Other observations

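Some hypoxia-related genes had large ratios without a call or a call with a small score, and are picked with their values in view. Ankrd37, a gene strongly induced by HIF, was listed at 1.96 FPKM with IFN-gamma and 10.3 FPKM untreated (log2 ratio -2.39), q = 0.151 in the authors' deposited table. It shares its locus with 2 other genes. Adm, which encodes the vasodilator adrenomedullin, stood at 0.0316 FPKM with IFN-gamma and 0.167 FPKM untreated (q = 0.125 in the authors' deposited table). Ndufa4l2, a HIF target of the respiratory chain, was at 4.26 FPKM with IFN-gamma and 1.83 FPKM untreated, a log2 ratio of 1.22 opposite in sign to those of Bnip3 and Pdk1 (q = 0.539 in the authors' deposited table). Tfrc, the transferrin receptor gene, was called lower at 44.9 FPKM with IFN-gamma and 73.1 FPKM untreated (q = 0.0112 in the authors' deposited table), with a score of only -0.65 in the authors' deposited table.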
